A study of Mus musculus with 12 samples.

Results

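Integrins are the cell surface receptors through which cells hold on to extracellular matrix and to one another. Values of 10 integrin genes were taken from a NanoString nCounter table of 750 mouse genes, and all 10 were present under the listed symbols: the alpha subunits Itga1, Itga4, Itga5, Itga6, Itgae and Itgal and the beta subunits Itgb1, Itgb2, Itgb3 and Itgb4. The assay counts barcoded probes hybridised to total RNA, with no amplification. The samples were 5 tumours of the KPC mouse pancreatic cancer line mT3-2D grown under the skin of immunodeficient SCID hosts, 5 such tumours grown in immunocompetent wild-type (WT) hosts, and 2 replicates of the mT3-2D line itself, which all the tumours share as their tumour cell. SCID hosts form no mature T or B cells but keep natural killer (NK) and myeloid cells. The labels give no age, sex or strain of the hosts. Nor do they state whether each tumour grew in its own animal, and some tumours share a number in their titles whose meaning is not given. The title numbers of WT tumour 2 and SCID tumour 5 belong to another series than those of all other tumours. The p-values therefore reflect only the spread among the samples, part of which may be technical.

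Each integrin is a pair of 1 alpha and 1 beta subunit, and the pair decides what it binds. The beta 1 subunit has the most partners: with alpha 1 it binds collagen, with alpha 4 the adhesion molecule VCAM1 and fibronectin, with alpha 5 fibronectin, and with alpha 6 laminin. Alpha 6 also pairs with beta 4 in the hemidesmosomes that anchor epithelial cells to the basement membrane. Beta 3 pairs with alpha V, or with the alpha IIb of platelets, and binds vitronectin and fibrinogen among others. Beta 2 is the leukocyte beta subunit, which with alpha L forms LFA-1, the receptor for ICAM molecules. Alpha E pairs with beta 7 and binds E-cadherin on epithelium. It is known from T cells that reside in tissue and from a class of dendritic cells.

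RefSeq promoter sequence (GRCm38.p6) was at hand for 4 of the 10 genes, of which 3 are shown as the full 250 bases before the annotated start, since Itga1 was lower in SCID tumours, Itga5 was higher in tumours than in the line, and Itgb1 encodes the beta subunit that both pair with. Capitals mark GC boxes (GGGCGG, either strand), the binding letters of the Sp1 family.
Itga1: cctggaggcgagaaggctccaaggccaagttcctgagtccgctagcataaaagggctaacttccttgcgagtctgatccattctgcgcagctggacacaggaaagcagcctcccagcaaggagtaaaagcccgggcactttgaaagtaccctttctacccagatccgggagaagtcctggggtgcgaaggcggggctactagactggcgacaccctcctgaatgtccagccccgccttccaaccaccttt
Itga5: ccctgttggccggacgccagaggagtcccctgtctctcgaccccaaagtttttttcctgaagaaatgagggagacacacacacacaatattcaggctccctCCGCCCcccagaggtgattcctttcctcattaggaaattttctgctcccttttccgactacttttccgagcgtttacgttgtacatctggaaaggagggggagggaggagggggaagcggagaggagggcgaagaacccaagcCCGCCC
Itgb1: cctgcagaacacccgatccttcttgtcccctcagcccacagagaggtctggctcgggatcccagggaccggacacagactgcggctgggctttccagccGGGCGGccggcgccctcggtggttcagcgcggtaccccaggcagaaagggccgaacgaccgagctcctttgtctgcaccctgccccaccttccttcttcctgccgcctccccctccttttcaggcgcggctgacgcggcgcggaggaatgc
The Itga1 window lies at chr13:115101965-115102214 on the minus strand, that of Itga5 at chr15:103366792-103367041 on the minus strand, and that of Itgb1 at chr8:128685404-128685653 on the plus strand. The Itga1 window held 0 GC boxes, that of Itga5 held 2 and that of Itgb1 held 1, and 32.7% of 32851 mouse promoter windows of this length held at least 1. Also searched on both strands were the interferon-gamma element GAS (TTCNNNGAA, in 7.02% of windows), the interferon element ISRE (2.98%) and the AP-1 site (TGANTCA, in 6.75%). None of these letters was in the windows of these 3 genes or in that of Itga4. A match is a description of the letters and not a site.

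Depth, as recovered whole probe counts, was 368925 to 558445 in a sample. A background level of 30 counts was set from T and NK cell genes in the line, which lies between 4.38 and 5.34 on the log2 scale in different samples. Above it lay 461 to 516 genes in SCID tumours, 538 to 590 in WT tumours and 329 to 333 in the line. WT tumours 2 and 3 were close to repeat counts of 1 sample, although their titles carry different numbers and name them as separate tumours. Chi-square over its degrees of freedom came to 1.20, where 19 further within-group pairs of tumours had 17.1 to 84.5. Their mean therefore counts as 1 sample, with n = 5 SCID tumours, n = 4 WT tumours and n = 2 line samples. The 2 line samples had a ratio of 1.64, also near that of repeat counts, and were kept as 2. The spread of the line in the comparisons with it may thus be mostly technical. The pan-leukocyte marker Ptprc (CD45) was above background in all tumours and at background in the line. The T cell marker Cd3e was above background in 0 of 5 SCID tumours and 4 of 4 WT tumours. SCID tumour 5 and WT tumour 1 had the lowest value of their group for the epithelial marker Epcam, 7.55 in SCID tumour 5 against 10.33 to 11.74 in the other SCID tumours, and 9.80 in WT tumour 1 against 11.92 to 12.78 in the other WT tumours.

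In tumours from SCID hosts, the collagen receptor subunit Itga1 and the subunit Itgb3 were lower than in their WT-host counterparts. Itga5 was the 1 integrin gene with a higher mean in SCID tumours, and Itgb1 and Itga6 differed least. The leukocyte genes Itgb2, Itgal and Itga4 had lower means, by 0.72 to 0.81 on the log2 scale, as did Itgae (-0.87). None of these passed the threshold. A gene was called at a Benjamini-Hochberg adjusted p under 0.05 in limma over all 750 genes. By this rule 2 of 10 integrin genes were lower and 0 higher, and over all genes 15.7% were lower and 0.133% higher. The median change was -0.72 over the 10 integrin genes and -0.33 over all genes on the log2 scale, with 9 of 10 integrin genes and 81.9% of all genes below 0.

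**Figure D1:**
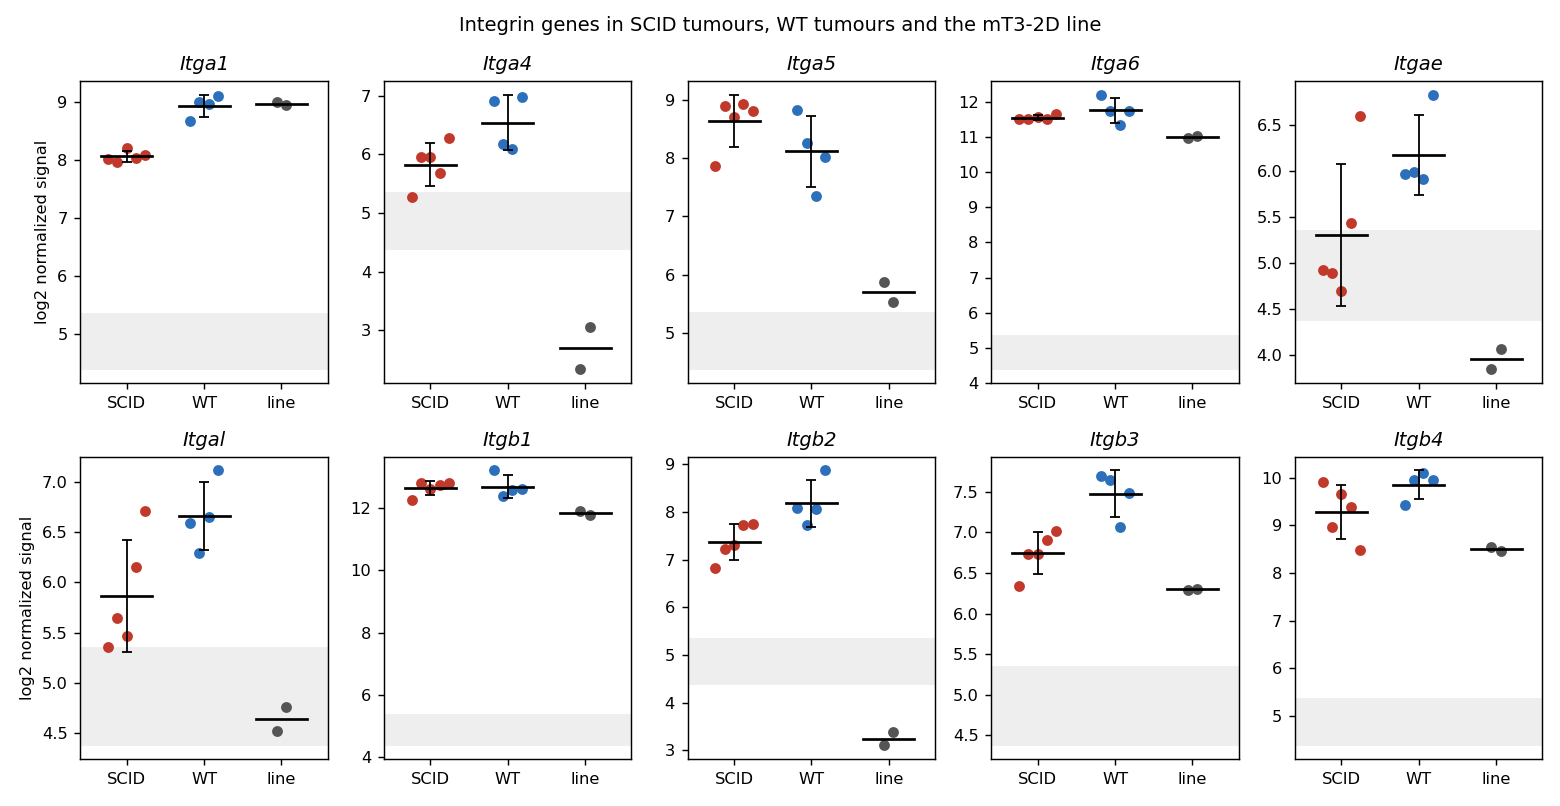
Log2 normalised signal of the 10 integrin genes in SCID tumours (red), WT tumours (blue) and the mT3-2D line (grey), 1 point per sample, with bars at the mean and error bars of 1 SD for the tumours. The grey band is the range of the background level over samples, and each panel has its own axis. The SCID and WT points do not overlap for Itga1 and Itgb3, and the line lies at or below the band for Itga4, Itgae and Itgb2 and within it for Itgal.

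Itga1 encodes alpha 1, a collagen receptor subunit of stromal, epithelial and activated T cells. Its log2 values were 8.01, 7.97, 8.20, 8.03 and 8.09 in the SCID tumours, 8.67, 8.996, 8.97 and 9.11 in the WT tumours, and 8.99 and 8.95 in the line. Every SCID tumour lay below every WT tumour and both line samples, with the 5 SCID values close together. The mean was 8.06 ± 0.09 (SD, n = 5) in SCID tumours and 8.94 ± 0.19 (SD, n = 4) in WT tumours, a difference of -0.88 (SE 0.15, limma adjusted p = 0.0038), or 1.84-fold lower. Of all genes, 15.7% were likewise lower with no overlap. Against the line, Itga1 was lower in SCID tumours by 0.91 on the log2 scale (SE 0.17, limma adjusted p = 9.1e-04). WT tumours and the line differed by -0.04 (SE 0.18, limma adjusted p = 0.866). When WT tumour 1 was left out, that difference was 0.05. Under the deposited scaling the line and WT tumours, which did not differ beyond their spread, thus came first in level and SCID tumours last. Under other scalings Itga1 was called lower in WT tumours than in the line, with differences of -2.64 with median scaling (limma adjusted p = 5.63e-07), -1.07 in edgeR (adjusted p = 1.41e-04) and -1.26 in DESeq2 (adjusted p = 3.79e-19). Median scaling sets the line on a level below background, since only 329 to 333 of 750 genes lay above background there. With every sample scaled on its median gene, which moves the median difference of all genes by 0.60, Itga1 differed by -0.27 and was not called (limma adjusted p = 0.316). In an exact permutation test over the tumours Itga1 had p = 0.0079, the smallest that its 126 splits allow, and 0.0676 after adjustment over all genes.

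Itgb3 encodes beta 3, known from platelets, endothelium, macrophages and invasive tumour cells. The SCID tumours had log2 values of 6.34, 6.73, 6.73, 6.90 and 7.02, the WT tumours 7.69, 7.65, 7.06 and 7.49, and the line 6.29 and 6.31. All SCID tumours lay below all WT tumours, with SCID tumour 5 close under WT tumour 4, and all tumours lay above the line. The means were 6.74 ± 0.26 (SD, n = 5) in SCID tumours and 7.47 ± 0.29 (SD, n = 4) in WT tumours, and the difference was -0.73 (SE 0.20, limma adjusted p = 0.0321). This call was lost in 12 of 26 alternatives, among them the leaving out of WT tumour 1, WT tumours 2 and 3, WT tumour 5 or SCID tumour 1, 2 or 3 (limma adjusted p between 0.0612 and 0.0843), edgeR (adjusted p = 0.173), DESeq2 (adjusted p = 0.137) and median scaling (limma adjusted p = 0.685). Relative to the line, Itgb3 differed by 0.45 in SCID tumours (SE 0.23, limma adjusted p = 0.12) and was higher by 1.17 in WT tumours (SE 0.24, limma adjusted p = 0.00106), and both differences turned to negative with median scaling and with DESeq2. Platelet and megakaryocyte markers, which could accompany Itgb3, gave a summed signal of 142.6 to 288 in SCID tumours, 241 to 356 in WT tumours and 43.7 to 52.1 in the line over 3 measured markers, with 0 called between SCID and WT tumours, and Itga2b, the platelet partner, was at background in all samples. Their part in the Itgb3 difference was not tested.

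**Figure D2:**
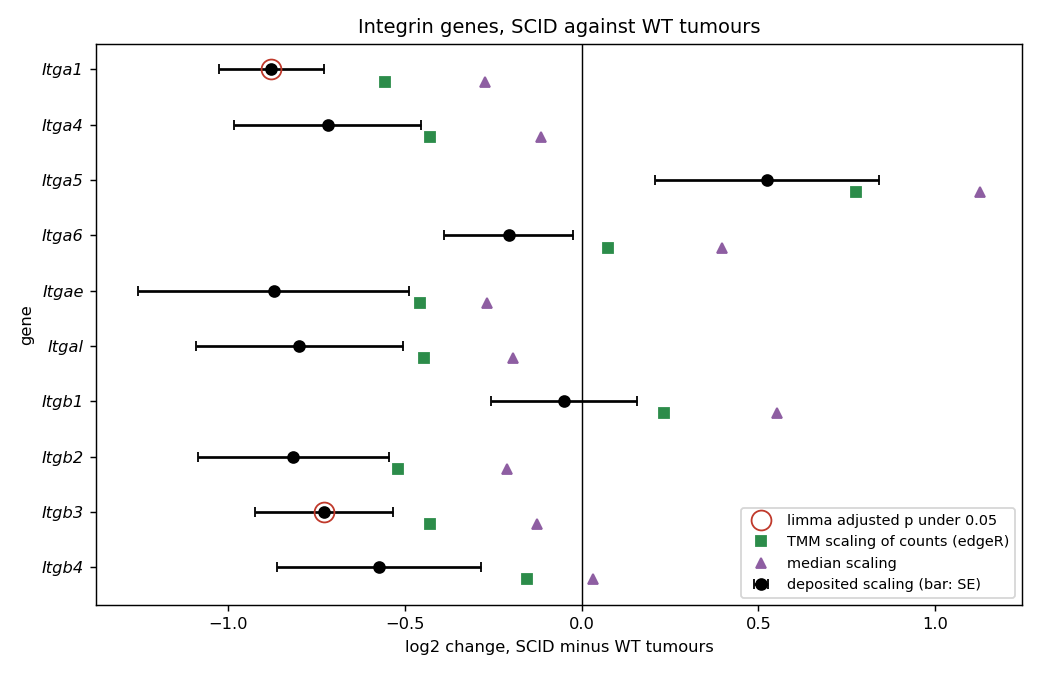
Log2 difference of each integrin gene, SCID minus WT tumours (n = 5 and 4), with the standard error, under the deposited scaling (black), TMM scaling of counts in edgeR (green squares) and median scaling (purple triangles). Rings mark Itga1 and Itgb3, called under the deposited scaling. Itga6 and Itgb1 turn to positive under TMM and median scaling, and Itgb4 is at 0.03 under median scaling.

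Itgb1 and Itga6 were the integrin genes with the smallest differences between SCID and WT tumours. Itgb1, the common beta subunit, had log2 values of 12.24, 12.80, 12.61, 12.75 and 12.80 in SCID tumours, 13.21, 12.38, 12.57 and 12.62 in WT tumours and 11.91 and 11.76 in the line. The 2 tumour groups overlap and both lie above the line. The difference between SCID and WT tumours was -0.05 (SE 0.21, limma adjusted p = 0.905), and it took the opposite sign without WT tumour 1 (0.12), without SCID tumour 1 (0.05), and under median, TMM and DESeq2 scaling (0.55, 0.23 and 0.29). Itga6 read 11.51, 11.53, 11.59, 11.51 and 11.66 in SCID tumours, 12.21, 11.74, 11.35 and 11.76 in WT tumours and 10.98 and 11.04 in the line. The WT tumours spread on both sides of the SCID tumours. Its difference was -0.21 (SE 0.18, limma adjusted p = 0.48), turning to 0.40, 0.08 and 0.13 under median, TMM and DESeq2 scaling. WT tumour 1, with the lowest Epcam value of the WT tumours, was the highest WT tumour for both genes.

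Against the line, both genes were higher in tumours under the deposited scaling, and their direction depended on the scaling. Itgb1 was higher by 0.81 in SCID tumours (SE 0.24, limma adjusted p = 0.0158) and by 0.86 in WT tumours (SE 0.25, limma adjusted p = 0.0104). Itga6 was higher by 0.55 in SCID tumours (SE 0.21, limma adjusted p = 0.0468) and by 0.75 in WT tumours (SE 0.22, limma adjusted p = 0.00975). The SCID call was lost with the sign kept in 12 of 25 alternatives, and the sign turned in 3 others. With DESeq2, Itgb1 differed by -0.05 in SCID and -0.33 in WT tumours and Itga6 by -0.31 in SCID and -0.44 in WT tumours. Relative to the line, DESeq2's scaling moved the median difference of all genes by -0.84 in SCID and -1.22 in WT tumours.

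Itga5, the alpha subunit of the main fibronectin receptor, had log2 values of 7.86, 8.90, 8.71, 8.92 and 8.81 in SCID tumours, 8.83, 8.26, 7.35 and 8.02 in WT tumours, and 5.88 and 5.54 in the line. SCID tumour 1 lay well below the other SCID tumours, within the WT range, and WT tumour 1 lay among the other SCID tumours. The difference of 0.52 between SCID and WT tumours (SE 0.32, limma adjusted p = 0.278) did not pass the threshold. It passed under median scaling (1.13, limma adjusted p = 0.0347) and in DESeq2 (0.84, adjusted p = 0.0282). All tumours lay above both line samples: Itga5 was 7.63-fold higher in SCID tumours (log2 2.93, SE 0.38, limma adjusted p = 5.91e-05) and 5.30-fold higher in WT tumours (log2 2.41, SE 0.39, limma adjusted p = 2.39e-04). Under median scaling it was still higher in SCID tumours (0.93) but not in WT tumours (-0.20). Fibronectin itself, Fn1, was higher than in the line by 2.13 in SCID tumours and 2.43 in WT tumours under the deposited scaling. Median scaling moves the median difference of all genes by about as much, -2.001 in SCID and -2.60 in WT tumours.

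Itgb4, the hemidesmosome subunit, had log2 values of 9.92, 8.97, 9.66, 9.39 and 8.49 in SCID tumours, 9.43, 9.94, 10.11 and 9.96 in WT tumours and 8.54 and 8.47 in the line. The tumour lowest in Itgb4 was also the tumour lowest in Epcam in each group: SCID tumour 5, at the level of the line, and WT tumour 1. SCID and WT tumours overlapped and differed by -0.57 (SE 0.29, limma adjusted p = 0.197), and by 0.03 under median scaling. Relative to the line, Itgb4 was higher in WT tumours by 1.36 (SE 0.35, limma adjusted p = 0.00541), with the opposite sign (-1.25) under median scaling. In SCID tumours it differed by 0.78 (SE 0.34, limma adjusted p = 0.0735), which became 0.98 and passed the threshold (limma adjusted p = 0.0131) without SCID tumour 5.

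**Figure D3:**
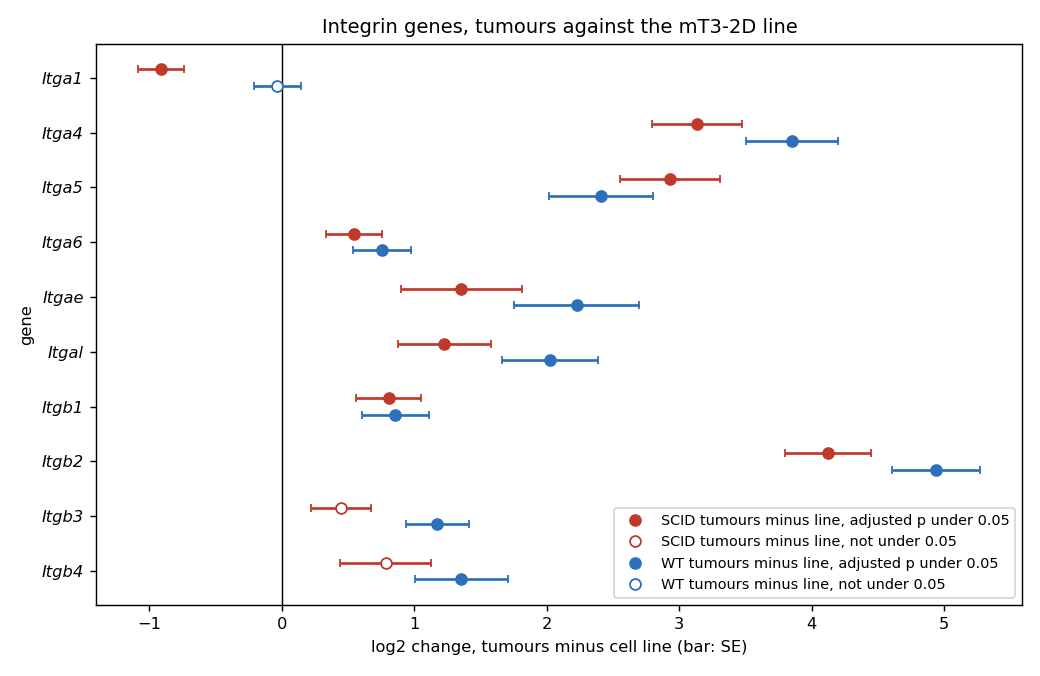
Log2 difference of each integrin gene, tumours minus the mT3-2D line (n = 2), for SCID tumours (red, n = 5) and WT tumours (blue, n = 4), with standard errors from 1 limma fit under the deposited scaling. Filled points passed the threshold. Itgb2, Itga4 and Itga5 lie farthest to the right, and Itga1 in SCID tumours is the 1 called point left of 0; under median scaling only Itgb2 and Itga4, and Itga5 in SCID tumours, stay right of 0.

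Read over all 10 genes, 7 integrin genes were higher and 1 lower in SCID tumours than in the line, where 51.6% of all genes were higher and 2.8% lower. In WT tumours 9 were higher and 0 lower than in the line, where 67.1% of all genes were higher and 2.67% lower. These splits depended on the scaling, and median scaling moved the median difference of all genes by -2.001 in SCID and -2.60 in WT tumours. The median gene of the line, on which that scaling rests, lay below background. In SCID tumours 3 integrin genes were higher and 6 lower than in the line with median scaling (all genes 101 and 481), and 3 higher and 1 lower in edgeR (202 and 124) and DESeq2 (193 and 168). In WT tumours 2 were higher and 5 lower with median scaling (106 and 483), and 5 higher and 1 lower in edgeR (246 and 149) and DESeq2 (232 and 192). Under the deposited scaling the median change of the integrin genes was 1.02 in SCID and 1.69 in WT tumours, beside 0.81 and 1.21 over all genes. Groups that do not overlap tell much the same: 8 integrin genes lay wholly above the line in SCID tumours and 1 wholly below, beside 60.7% and 4.93% of all genes, and 9 lay wholly above it in WT tumours and 0 below, beside 73.5% and 4.93%. With 1 line sample left out, the calls in SCID tumours were lost for Itgb1, Itgae and Itga6 (limma adjusted p between 0.063 and 0.194) and, without line sample 1, for Itgal (0.0926), and those in WT tumours for Itga6 without line sample 1 (0.064) and for Itgb1 without line sample 2 (0.0752). Both comparisons share the 2 line samples. In whole tumours, fewer cells of a type and less RNA per cell cannot be told apart.

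Among the leukocyte integrin genes, Itgb2 stood farthest above the line. Itgb2, the beta 2 subunit, had log2 values of 6.83, 7.23, 7.32, 7.73 and 7.74 in SCID tumours and 8.08, 7.72, 8.06 and 8.87 in WT tumours, while both line samples, with 12 and 15 counts, were at background. SCID tumours 4 and 5 reached just above the lowest WT value. Itgb2 was at least 7.81-fold higher than the line in SCID tumours (limma adjusted p = 1.24e-06) and at least 13.7-fold higher in WT tumours (limma adjusted p = 2.85e-07). SCID and WT tumours differed by -0.81 (SE 0.27, limma adjusted p = 0.0672). Without SCID tumour 5, this passed the threshold (-0.91, limma adjusted p = 0.0467).

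Itgal, the alpha L chain that completes LFA-1, had log2 values of 5.36, 5.64, 5.47, 6.16 and 6.71 in SCID tumours and 6.59, 6.29, 6.65 and 7.11 in WT tumours. SCID tumour 5 lay inside the WT range and the other SCID tumours below it. The line samples, with 32 and 39 counts, were just above background. The difference between SCID and WT tumours was -0.80 (SE 0.29, limma adjusted p = 0.0907), and -1.01 without SCID tumour 5, which passed the threshold (limma adjusted p = 0.0165). Against the line Itgal was higher by 1.23 in SCID tumours (SE 0.35, limma adjusted p = 0.0117) and by 2.02 in WT tumours (SE 0.36, limma adjusted p = 4.61e-04), with both signs turned under median scaling and the SCID call lost with values raised to background (0.52, limma adjusted p = 0.457), in edgeR and in DESeq2.

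Itgae encodes alpha E, the CD103 marker. Its log2 values were 4.92, 4.89, 4.69, 5.43 and 6.60 in SCID tumours and 5.97, 5.99, 5.91 and 6.83 in WT tumours. Of the SCID tumours, 3 of 5 were above background, with SCID tumour 5 far above the others, and the line was at background. The groups differed by -0.87 (SE 0.38, limma adjusted p = 0.148), and by -1.19 without SCID tumour 5 (limma adjusted p = 0.0118). Relative to the line, Itgae was at least 1.87-fold higher in SCID tumours (limma adjusted p = 0.0258) and at least 3.42-fold higher in WT tumours (limma adjusted p = 0.00146). Both calls were lost when all values were raised to the highest background level.

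Itga4, which lets leukocytes bind VCAM1 on endothelium, had log2 values of 5.28, 5.95, 5.95, 5.68 and 6.28 in SCID tumours and 6.92, 6.19, 6.09 and 6.99 in WT tumours. The highest SCID tumour, again SCID tumour 5, overlapped the lower 2 WT tumours. The difference was -0.72 (SE 0.26, limma adjusted p = 0.0907). The line had 7 and 12 counts, which is background, and Itga4 was at least 2.68-fold higher than the line in SCID tumours (limma adjusted p = 1.51e-05) and at least 4.41-fold higher in WT tumours (limma adjusted p = 2.90e-06). With values raised to the highest background level, the SCID call was lost (0.50, limma adjusted p = 0.374). When SCID tumour 5 and WT tumour 1 were both left out, 4 integrin genes were lower in SCID than in WT tumours, namely Itga1, Itgb3, Itgae and Itgal.

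Leukocyte markers moved alongside these genes. Of 10 measured pan-leukocyte markers, 5 were lower in SCID than in WT tumours (Ptprc, Cd37, Ikzf1, Ncf4 and Csf2rb) and 0 higher, beside 15.7% and 0.133% of all genes. Their summed signal was 949 to 2207 in SCID tumours, 1940 to 3277 in WT tumours and 122 to 132 in the line, where all 10 were at background. The T cell list had 8 of 10 markers lower in SCID tumours, beside the same 15.7% of all genes, with 0 of 10 above background there on average. The mean log2 value of the 10 leukocyte markers was 6.53 ± 0.38 (SD, n = 5) in SCID tumours and 7.34 ± 0.28 (SD, n = 4) in WT tumours, a difference of -0.80. SCID tumour 5, the highest SCID tumour for Itgae, Itgal, Itgb2 and Itga4, was also the highest of the SCID tumours for this mean, at 7.12.

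**Figure D4:**
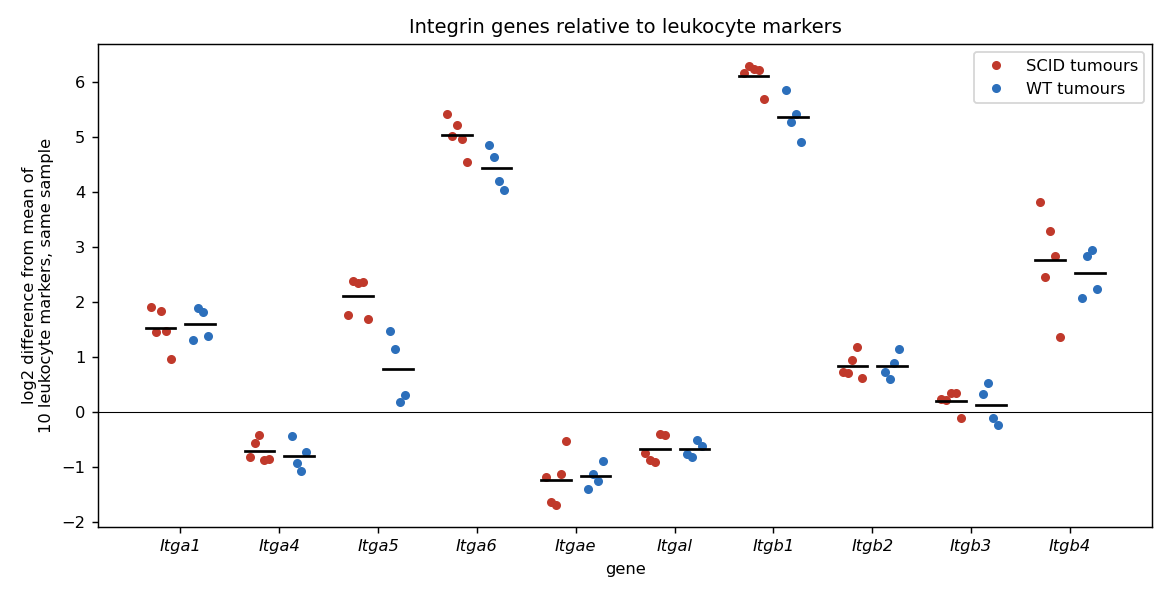
Log2 difference of each integrin gene from the mean of 10 leukocyte markers in the same sample, for SCID tumours (red) and WT tumours (blue), with bars at the means. The levels of different genes on the vertical axis are not comparable, since each probe has its own efficiency. Itga5 is the 1 gene whose SCID points, from 1.69 to 2.38, all lie above its WT points, from 0.19 to 1.47.

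Set against that mean, the leukocyte integrin genes differed little between hosts. Relative to the leukocyte markers of the same tumour, SCID tumours minus WT tumours came to -0.01 for Itgb2, 0.01 for Itgal, 0.09 for Itga4 and -0.07 for Itgae, and the groups overlapped for each. Itga1 (-0.07) and Itgb3 (0.08) also differed little on this scale. Itga1 was above background in the line, where the leukocyte markers were at background. Itgb4 differed by 0.23, Itga6 by 0.60 and Itgb1 by 0.75, all with overlap. Itga5 differed by 1.33, the 1 integrin gene whose groups did not overlap, where 14.5% of all genes were higher and 2.93% lower with no overlap. The part of leukocyte content in the differences was not tested.

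Known pairs of subunits were followed as the difference of alpha minus beta within each sample. Probes differ in efficiency, so only shifts of this difference between groups were read. Itga4 minus Itgb1 ran from -7.07 to -6.52 in SCID tumours and from -6.48 to -5.63 in WT tumours, with no overlap, and so did Itgb3 minus Itgb1 among the 10 genes, where 7.88% of all genes were lower relative to Itgb1 with no overlap. Itga1 minus Itgb1 shifted by -0.83 and Itga5 minus Itgb1 by 0.57 in SCID against WT tumours, both with overlap. For Itga6 the shift was -0.16 against Itgb1 and 0.37 against Itgb4, again with overlap. Itgal minus Itgb2 averaged -1.50 ± 0.30 (SD, n = 5) in SCID tumours and -1.52 ± 0.16 (SD, n = 4) in WT tumours, a shift of 0.02. In the line, where Itgb2 was at background, it averaged 1.40.

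**Figure D5:**
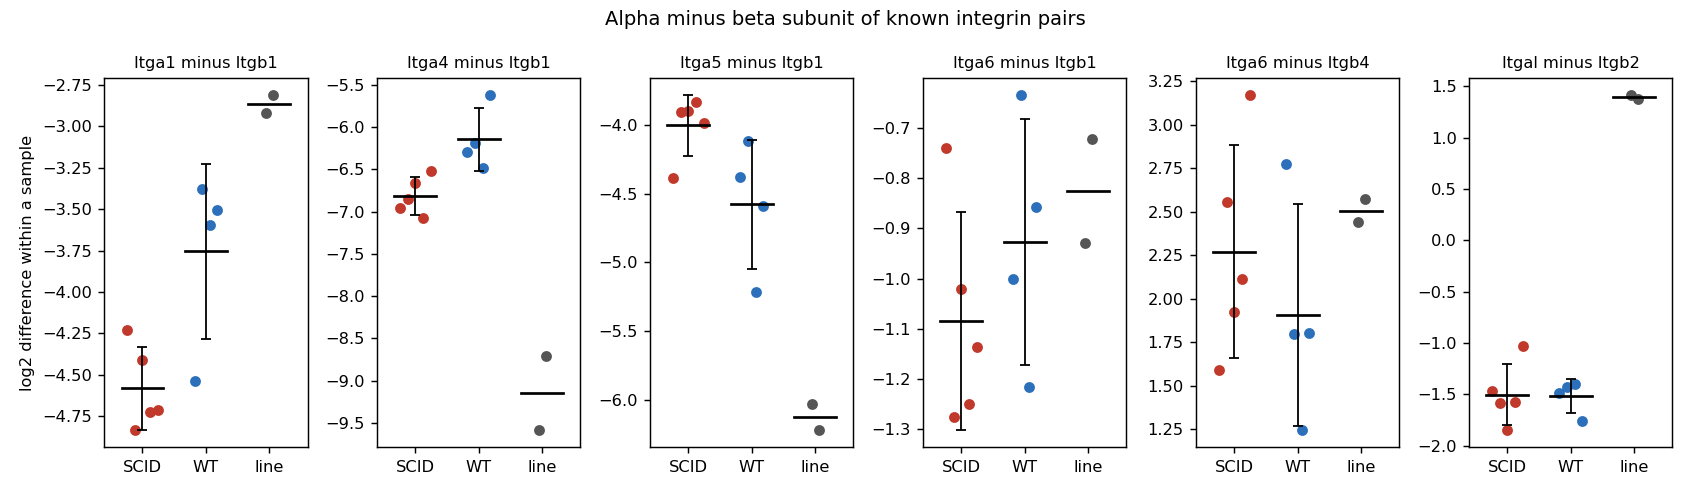
Log2 difference of alpha minus beta subunit within each sample for 6 known pairs, in SCID tumours, WT tumours and the mT3-2D line, with the mean and, for the tumours, 1 SD. Itga4 minus Itgb1 separates SCID from WT tumours, and Itgal minus Itgb2 averages -1.50 in SCID and -1.52 in WT tumours; the line values of Itga4 and Itgb2 are at background.

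The other genes of the integrin system were described from lists. Of 4 other integrin genes measured (Itga2, Itga2b, Itgam and Itgax), 0 passed the threshold between SCID and WT tumours, beside 15.7% of all genes lower and 0.133% higher. Itgax, the CD11c chain of dendritic cells and macrophages, differed by -0.75 (limma adjusted p = 0.0857), and Itgam, the CD11b chain of myeloid cells, by -0.45 (limma adjusted p = 0.135). Itga2, a collagen receptor subunit like Itga1, differed by 0.03 (limma adjusted p = 0.941), with log2 means of 10.36 ± 0.19 (SD, n = 5) in SCID and 10.33 ± 0.09 (SD, n = 4) in WT tumours. Against the line, 2 of 4 were higher in SCID tumours and 3 of 4 in WT tumours, beside the same 51.6% and 67.1% of all genes, the third being Itga2b, at background throughout. Itgam was at least 5.80-fold and Itgax at least 4.41-fold higher in WT tumours.

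Among 15 measured integrin ligands, 0 passed the threshold between SCID and WT tumours, beside 15.7% of all genes lower and 0.133% higher. The median change of the ligands was -0.18. The largest were those of Vcam1, the ligand of alpha 4 beta 1 (-0.89, limma adjusted p = 0.152), Vwf, the von Willebrand factor that platelet integrins bind (-0.69, limma adjusted p = 0.107), and Spp1, osteopontin, which beta 3 integrins bind (0.49, limma adjusted p = 0.227). Spp1 passed in DESeq2 (0.85, adjusted p = 0.0044). Against the line, 11 of 15 ligands were higher in SCID and 11 of 15 in WT tumours, beside 51.6% and 67.1% of all genes. The fibrillar collagens Col1a1 and Col3a1, which alpha 1 beta 1 and alpha 2 beta 1 bind, were at background in the line and at least 595-fold and 411-fold higher in WT tumours, and Thy1, a ligand of several integrins, at least 32.1-fold higher.

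Of 13 integrin partners and signalling genes, 1 was higher and 1 lower in SCID than in WT tumours, beside 0.133% and 15.7% of all genes. The tetraspanin Cd9, which binds beta 1 integrins, was higher by 0.54 (SE 0.16, limma adjusted p = 0.0429). It was the 1 gene of all 750 called higher. Its call was lost without WT tumours 2 and 3, WT tumour 4, WT tumour 5, SCID tumour 3 or SCID tumour 4. The call was also lost with title numbers as a block and in the exact permutation test, since 0 genes were called higher in any of these settings. The haematopoietic kinase Btk was lower by 0.92 (SE 0.16, limma adjusted p = 0.00382), a call lost with median scaling (-0.32, limma adjusted p = 0.242) and after adjustment of the exact permutation test (0.0676). Pik3cd, a leukocyte lipid kinase, differed by -0.76 (limma adjusted p = 0.164). Of 16 other leukocyte adhesion genes, 2 were lower in SCID tumours, beside the same 15.7% of all genes. Among these 2 was the T cell receptor Cd6, at background in SCID tumours, lower by at least 1.31-fold (limma adjusted p = 0.00114), a call lost with values raised to background. Ceacam1 differed by -1.08 (limma adjusted p = 0.103). In WT tumours 11 of 13 partners and 15 of 16 adhesion genes were higher than in the line, beside 67.1% of all genes. Only 12 of the 16 adhesion genes were above background in WT tumours on average. Cd2 and Cd5, both called higher, were at background in WT tumours and in the line. The higher adhesion genes also included the endothelial genes Pecam1 (at least 13.2-fold) and Cd34 (at least 13.9-fold).

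The genes most like each integrin gene over the 11 counted samples were found by the smallest root-mean-square difference of log2 values, each gene centred on its own mean, among the 567 genes above background in at least 3 samples. Itga6 and Itgb1, which form a laminin receptor, lay 0.21 apart, so that Itgb1 ranked 11 of 566 for Itga6, and Itga6 ranked 3 for Itgb1. The other partner subunits were not close by this measure, which includes the line samples, where Itgb2 and Itga4 were at background. Itgb1 ranked 138 for Itga5, 237 for Itga1 and 284 for Itga4. For Itga6, Itgb4 ranked 256, and for Itgal, Itgb2 ranked 492. Yet Itgal minus Itgb2 averaged -1.50 in SCID and -1.52 in WT tumours, beside 1.40 in the line. Itgae and Itgal were 0.22 apart, each among the closest pair for the other. Nearest to Itgb2 were H2-DMa (0.21) and Ptprc (0.29), and nearest to Itga4 were Entpd1 (0.22) and Ccr1 (0.27). For Itga1 they were Ifngr1 (0.26) and Tnfrsf11a (0.27), for Itgb3 Maf (0.17) and Cd3eap (0.23), and for Itgb4 Irak2 (0.29) and Il18 (0.29). Itga5 had no gene as close, with Tgfb1 at 0.37 and Cd36 at 0.43. These distances describe likeness in this table alone, under the deposited scaling.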

How the data were processed

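Total RNA was measured with the NanoString nCounter system per the labels. The authors deposited log2 values for 750 genes and linear signal for 749 of them, which are equal apart from the log. How they normalized the counts, on which genes and with which software, is not given in the sources used here. Within each sample 100% of the deposited signal values were whole multiples (tolerance 0.02) of 1 step, so whole counts could be recovered; 1 count was worth 0.694 to 1.35 units. In the main setting, limma 3.58.1 (R 4.3.3) was fitted to the deposited log2 values, two-sided, with no pseudocount, filter or covariate: SCID against WT tumours on the tumours alone, and tumours against the line in 1 fit over 3 groups. WT tumours 2 and 3 were averaged. P-values were adjusted by Benjamini-Hochberg over 750 genes.

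The background level is percentile 95 of the counts of 17 T and NK cell genes in the line (median 15 counts), a rule chosen with the values in view. A fold against a group whose samples all lay at or under it is a bound, from the mean background level of that group or its own values if higher. Such a bound holds under the deposited scaling only. The limma adjusted p beside it belongs to the unbounded log2 difference of the deposited values. The authors' panel probes were taken at their names, all 10 of which are current RefSeq symbols, and no transcript coordinates of probes were used. The members and lists were chosen with earlier results of these data known. Named genes are the 10 integrin genes, from each list the 3 genes above background that differed most in each of 2 comparisons, and the 2 genes most like each integrin gene; other named genes were chosen after their values were seen. Some genes that this rule names are left out of the text.

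Replicate numbers gave no sign of pairing the samples (correlations of same-numbered deviations from -0.41 to 0.24, 0 of 5 best matched by their own number). So few pairs cannot exclude a pairing. Alternatives were recovered counts in edgeR 4.0.16 and DESeq2 1.42.0, other scalings (including on 51 widely expressed genes picked with the data known), low-value settings, each sample left out, title numbers, replicate block and an exact permutation test. On data simulated with independent normal noise for 750 genes, log2 changes of 1 were recovered at 76% for SCID against WT tumours, 59% with WT tumours and the line and 55% with SCID tumours and the line. Changes of 2 were recovered at 99%, 95% and 92% in the same order.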

Additional observations from a re-analysis of the deposited data

Results flagged for a closer look

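Among the integrin genes and the genes named from lists, 4 of 52 tests within a tumour group found a sample far from the others, by the gap to the nearest sample over the whole range (chance alone gives about 1 in 20). Itga5 in SCID tumour 1 had a log2 value of 7.86, against 8.71 to 8.92 in the other SCID tumours. Itgae in WT tumour 5 had a value of 6.83, against 5.91 to 5.99 in the other WT tumours. Vcam1 in SCID tumour 2 was at 6.38, against 7.28 to 7.53 in the other SCID tumours. Selplg, the selectin ligand PSGL-1, was at 5.50 in SCID tumour 1, against 6.54 to 6.88 in the other SCID tumours.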

How the results depend on the processing

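For SCID against WT tumours, 119 genes were called. The count was 52 with values raised to the highest background level, 74 with low genes filtered out, 67 in edgeR, 195 without WT tumour 1 and SCID tumour 5 together (an alternative chosen after the data were seen), 0 in an exact permutation test (215 genes at an unadjusted p under 0.05) and 67 to 158 with 1 sample left out, lowest without WT tumour 5 and highest without SCID tumour 5. Higher against lower calls stood at 1 and 118, at 49 and 37 with median scaling, 57 and 79 in DESeq2, 10 and 57 in edgeR and 1 and 88 when scaled on widely expressed genes. Of the integrin genes 2 were called, against 1 with median scaling (Itga5, higher), widely expressed genes, raised values or edgeR. The integrin count was 4 without WT tumour 1 and SCID tumour 5, and 5 with a replicate block. In the larger series of title numbers, which leaves out WT tumour 2 and SCID tumour 5, it was 6. By permutation it was 0 (4 at an unadjusted p under 0.05), and with 1 sample left out 1 to 5. WT tumours against the line gave 523 calls and 293 with raised values; SCID tumours against the line gave 408 and 182. Higher against lower calls stood at 503 and 20 for WT tumours against the line, at 106 and 483 with median scaling, 246 and 149 in edgeR and 232 and 192 in DESeq2, and at 387 and 21 for SCID tumours against the line, at 101 and 481, 202 and 124, and 193 and 168 in the same settings. Integrin calls for SCID tumours against the line fell from 8 to 4 with raised values, a replicate block, edgeR or DESeq2, and to 4 and 5 without a line sample.

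Signs turned as follows (log2). SCID minus WT tumours: Itgb1 to 0.014 with WT tumours 2 and 3 apart or a replicate block, 0.018 on widely expressed genes, 0.55, 0.23 and 0.29 under median, TMM and DESeq2 scaling, 0.083 without WT tumour 1 and SCID tumour 5, and -0.15 to 0.12 with 1 sample left out; Itga6 to 0.40, 0.075 and 0.13 under the 3 scalings; with median scaling Itgb4 to 0.031 and Itgam to 0.16; Itga2 to -0.014 without WT tumours 2 and 3, within -0.018 to 0.10 over all samples left out. WT minus line with median scaling: Itga5 -0.20, Itga6 -1.85, Itgae -0.38, Itgal -0.58, Itgb1 -1.75, Itgb3 -1.43, Itgb4 -1.25 and Itga2 -2.40; in edgeR Itga6 -0.24, Itgb1 -0.14 and Itga2 -0.83; in DESeq2 Itga6 -0.44, Itgb1 -0.33, Itgb3 -0.035 and Itga2 -1.02; Itga1 was 0.054 without WT tumour 1, with or without SCID tumour 5, and -0.093 to 0.054 with 1 sample left out. SCID minus line with median scaling: Itga6 -1.45, Itgae -0.65, Itgal -0.77, Itgb1 -1.20, Itgb3 -1.55 and Itgb4 -1.22; in edgeR Itga6 -0.17 and Itgb3 -0.26; in DESeq2 Itga6 -0.31, Itgb1 -0.047 and Itgb3 -0.40. The median gene of the line lies below background. The causes were not tested.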
